A study of Mus musculus with 7 samples.

Results

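The T cell and cytotoxic lymphocyte genes described here were 10 named genes, found by symbol among the 22447 genes listed in 7 mouse lung RNA sequencing libraries. There were 6 genes of the T cell receptor side, Cd3d, Cd3e, Cd3g, Cd2, Cd4 and Cd8a, and 4 genes of the cytotoxic side, Nkg7, Gzma, Gzmb and Prf1. All 10 were found, and all 10 reached the level asked of a gene to be tested, 1 FPKM in at least 2 libraries. Prf1 reached it only through the lungs of the second group below, so for comparisons with that group its test is given from a fit with no filter on low values (19404 genes). FPKM are fragments mapped, scaled to transcript length and to the mapped fragments of the library, so levels can be compared between genes.

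The libraries were 3 lung tumors from mice labelled as overexpressing EZH2 (tumors 1, 2 and 3), 2 normal lungs labelled with the same overexpression (OE normal lungs 1 and 2) and 2 normal lungs of wild-type mice (WT lungs 1 and 2). EZH2 is the enzyme that methylates lysine 27 of histone H3. The labels gave no age, sex, strain, promoter or tumor grade, and did not say whether libraries of a group came from separate animals, so the p-values below speak of the spread among these 7 libraries alone. The culture notes describe minced tumor nodules grown in dishes, while the source of every library is given as lung tissue. Whether the tumor RNA came from fresh or from cultured nodules was not stated, and a difference between tumor and lung cannot be told apart from one between cultured and fresh material. In bulk RNA, fewer cells of a type and less RNA per cell cannot be told apart either.

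T cells recognise antigen through a receptor whose signal is carried by the CD3 chains and helped by the coreceptors CD4 and CD8. Cytotoxic T cells and natural killer (NK) cells kill by releasing granules in which perforin opens the way for granzymes, and NKG7 takes part in that release. Normal lung holds resident and circulating T and NK cells.

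Ezh2 was at 8.48, 23.5 and 22.6 FPKM in tumors 1, 2 and 3, at 10.2 and 11.5 FPKM in OE normal lungs 1 and 2, and at 3.72 and 2.58 FPKM in WT lungs 1 and 2, so every library labelled as overexpressing lay above both WT lungs. Steps between the lowest values put the depth at about 30.6 to 57.2 M reads per library (M, 1e6 reads), an estimate from the values and not a reported depth. Tumor 1 stood apart from tumors 2 and 3 in several leukocyte genes, among them Cd2 and Ptprc, and results that rest on it are given with and without it. Genes with at least 1 FPKM numbered 12028 to 12625 in the tumors and 13203 to 13567 in the 4 normal lungs.

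Promoter sequences were read from RefSeq (GRCm38.p6, 250 bases before to 50 after the start of the gene), which had an entry for 8 of the 10 genes. Cd2 and Cd4 had none. Motif letters of 2 factor families that act in lymphocytes were searched on both strands, TGTGGT for RUNX, which reads as ACCACA on the opposite strand, and AGGAAG for ETS, which reads as CTTCCT, and no match of one overlapped a match of the other. The RUNX letters were present in 4 of the 8 promoters, those of Nkg7, Gzma, Gzmb and Prf1, and in none of those of Cd3d, Cd3e, Cd3g and Cd8a, while 16.8% of all 32851 promoters in the table held them. The ETS letters were present in 4 of the 8, those of Cd3d, Cd3e, Nkg7 and Prf1, against 35.4% of all promoters. The 4 cytotoxic promoters are printed because all carried the RUNX letters, and that of Cd3e to show a receptor gene with ETS letters alone. Capitals mark the matches. They lie at chr7:43436888-43437187 on the plus strand for Nkg7, chr13:113100932-113101231 on the minus strand for Gzma, chr14:56262285-56262584 on the minus strand for Gzmb, chr10:61297586-61297885 on the plus strand for Prf1 and chr9:45009562-45009861 on the minus strand for Cd3e, each written 5′ to 3′ along its gene. A match describes the letters only and shows no binding.
Nkg7: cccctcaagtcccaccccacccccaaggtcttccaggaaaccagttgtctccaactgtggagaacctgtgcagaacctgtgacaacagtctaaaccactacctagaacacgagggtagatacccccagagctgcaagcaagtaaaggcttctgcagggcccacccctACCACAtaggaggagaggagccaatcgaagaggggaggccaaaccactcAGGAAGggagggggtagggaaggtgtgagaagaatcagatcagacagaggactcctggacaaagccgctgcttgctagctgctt
Gzma: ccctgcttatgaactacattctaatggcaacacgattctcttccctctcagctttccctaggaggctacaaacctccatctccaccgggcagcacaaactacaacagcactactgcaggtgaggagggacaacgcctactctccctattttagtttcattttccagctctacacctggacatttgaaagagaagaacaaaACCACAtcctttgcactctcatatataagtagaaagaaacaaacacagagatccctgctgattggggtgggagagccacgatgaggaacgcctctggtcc
Gzmb: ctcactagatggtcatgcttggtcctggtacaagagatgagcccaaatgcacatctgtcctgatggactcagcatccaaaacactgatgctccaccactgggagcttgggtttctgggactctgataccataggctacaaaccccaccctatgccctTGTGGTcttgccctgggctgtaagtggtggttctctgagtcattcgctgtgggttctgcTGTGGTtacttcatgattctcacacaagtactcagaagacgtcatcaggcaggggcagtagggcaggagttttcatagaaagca
Prf1: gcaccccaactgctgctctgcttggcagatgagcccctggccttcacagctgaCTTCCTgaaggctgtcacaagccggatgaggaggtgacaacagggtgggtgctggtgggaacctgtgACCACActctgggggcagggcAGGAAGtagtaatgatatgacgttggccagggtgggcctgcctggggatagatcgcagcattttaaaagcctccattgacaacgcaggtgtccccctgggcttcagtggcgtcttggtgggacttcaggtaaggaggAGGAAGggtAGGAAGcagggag
Cd3e: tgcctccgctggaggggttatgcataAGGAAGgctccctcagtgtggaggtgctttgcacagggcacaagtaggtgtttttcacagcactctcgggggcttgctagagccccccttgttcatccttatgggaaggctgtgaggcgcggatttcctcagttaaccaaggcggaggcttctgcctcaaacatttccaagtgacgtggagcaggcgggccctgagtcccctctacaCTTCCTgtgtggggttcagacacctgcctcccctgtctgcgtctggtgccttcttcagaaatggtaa

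All 10 genes were lowest on average in the tumors and highest in the OE normal lungs, with the WT lungs between. The CD3 chains carry the receptor's signalling motifs. Cd3e, the epsilon chain that every receptor complex contains, was at 0.900, 0.704 and 1.57 FPKM in tumors 1, 2 and 3, at 6.51 and 9.28 FPKM in OE normal lungs 1 and 2, and at 4.69 and 2.98 FPKM in WT lungs 1 and 2. Cd3d, the delta chain, was at 0.569, 0.705 and 1.34 FPKM in the tumors, at 5.82 and 8.62 FPKM in OE normal lungs and at 3.45 and 1.89 FPKM in the WT lungs. Cd3g, the gamma chain, was at 1.77, 1.82 and 4.37 FPKM in the tumors, at 9.47 and 17.8 FPKM in OE normal lungs and at 8.19 and 5.67 FPKM in the WT lungs. For each of the 3 chains the highest tumor, tumor 3, lay below the lowest normal lung, and OE normal lung 2 was the highest library.

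Cd2, an adhesion and costimulatory receptor of T and NK cells, did not keep to that order. It was at 10.4, 1.14 and 1.34 FPKM in tumors 1, 2 and 3, at 15 and 36.0 FPKM in OE normal lungs 1 and 2, and at 9.97 and 5.77 FPKM in WT lungs 1 and 2. Tumor 1 lay above both WT lungs, while its CD3 chains were all lower than those of tumor 3. Cd2 was the highest of the 10 genes in tumor 1 and in all 4 normal lungs, while Cd3g was the highest in tumors 2 and 3.

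Cd4, the coreceptor of helper T cells, also made by some myeloid cells, was at 0.244, 1.00 and 1.19 FPKM in tumors 1, 2 and 3, at 3.99 and 11.4 FPKM in OE normal lungs 1 and 2, and at 4.37 and 1.49 FPKM in WT lungs 1 and 2. The OE normal lungs and WT lungs overlapped for Cd4, and no tumor reached either. Cd8a, a chain of the coreceptor of cytotoxic T cells, was at 0.131, 0.123 and 0.222 FPKM in the tumors, at 4.63 and 4.35 FPKM in OE normal lungs and at 1.62 and 0.561 FPKM in the WT lungs. The 2 OE normal lungs were close to each other for Cd8a, and the WT lungs lay apart from each other.

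Nkg7, a granule membrane protein of cytotoxic cells, was at 0.992, 0.608 and 1.45 FPKM in tumors 1, 2 and 3, at 12.7 and 33.3 FPKM in OE normal lungs 1 and 2, and at 9.03 and 3.81 FPKM in WT lungs 1 and 2. Gzma, granzyme A, a serine protease of the granule, was at 0.257, 0.05 and 0.505 FPKM in the tumors, at 7.31 and 6.40 FPKM in OE normal lungs and at 3.21 and 5.73 FPKM in the WT lungs. No tumor overlapped a normal lung for either gene, and WT lung 2, the lower WT lung for the CD3 chains and Nkg7, was the higher one for Gzma. Gzmb, granzyme B, the granule protease that activates caspases, was at 0.193, 0.281 and 0.455 FPKM in the tumors, at 2.82 and 2.37 FPKM in OE normal lungs and at 0.857 and 1.05 FPKM in the WT lungs. Prf1, perforin, which forms pores in the target membrane, was at 0.0476, 0.0277 and 0.125 FPKM in the tumors, at 2.10 and 2.26 FPKM in OE normal lungs and at 0.867 and 0.614 FPKM in the WT lungs. Prf1 was the lowest of the 10 genes in the tumors and in the OE normal lungs, and the 3 groups of libraries did not overlap for Gzmb or Prf1.

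The tumor values of the cytotoxic genes and of Cd8a rested on few reads. From the inferred depth and transcript length, Prf1 stood for about 4, 4 and 12 reads in tumors 1, 2 and 3, about 191 and 320 reads in OE normal lungs 1 and 2, and about 96 and 64 reads in WT lungs 1 and 2. Gzma stood for about 8, 3 and 20 reads in the tumors, about 267 and 364 reads in the OE normal lungs and about 142 and 239 reads in the WT lungs. Cd3e stood for about 40, 54 and 89 reads in the tumors, but Cd8a, also of the receptor side, for about 13, 20 and 27. Nkg7, of the cytotoxic side, stood for about 27, 28 and 50 reads there. Low read numbers thus did not part the 2 sides. None of the 10 genes was listed at 0 in any library.

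**Figure D1:**
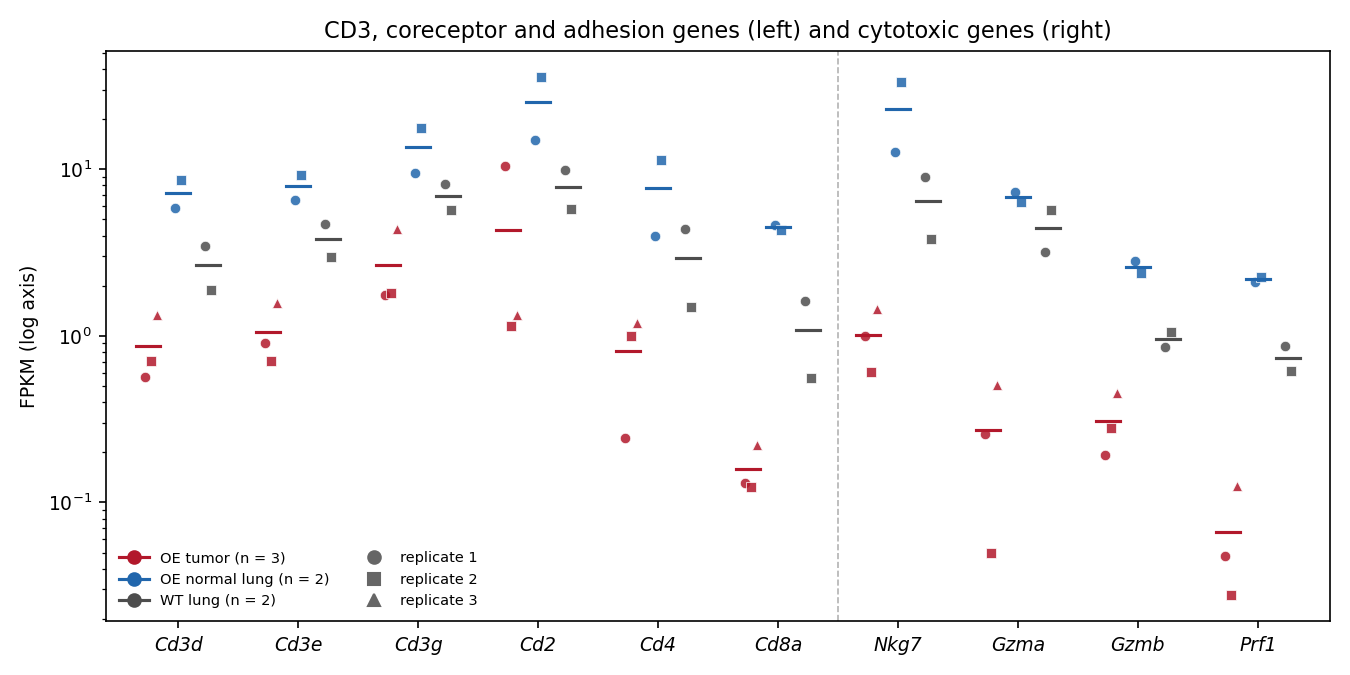
Level of each of the 10 genes in each library, in FPKM on a log axis; points are libraries and bars group means, with the 3 tumors left, the 2 OE normal lungs in the middle and the 2 WT lungs right for each gene, and a dashed line parts the receptor genes from the cytotoxic genes. The tumors lay below all normal lungs for every gene but Cd2, where tumor 1 at 10.4 FPKM lay above both WT lungs.

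Tumors were first set against the OE normal lungs, which carry the same overexpression. All 10 genes were lower in the tumors by limma's moderated test on log2(FPKM + 1), with Benjamini-Hochberg adjustment over 14057 genes and a threshold of 0.05, and 24.9% of all genes tested were called lower. Of the 9 genes whose entry did not rest on the OE normal lungs alone, 9 were called. The libraries did not overlap for any of these 9, against 35.9% of all genes tested with every tumor below both OE normal lungs. For Prf1 the lack of overlap followed from the filter and is not counted. The median log2 difference was -2.15 over the 6 receptor genes and -2.11 over the 4 cytotoxic genes, Prf1 among them, while that of all genes tested was -0.11. Differences on this scale understate the change of genes near or under 1 FPKM, so fold changes of mean FPKM are given with them.

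Cd8a averaged 0.158 ± 0.0549 FPKM in the tumors (SD, n = 3) and 4.49 ± 0.197 FPKM in OE normal lungs (SD, n = 2), 28.4-fold lower (log2 difference -2.25 ± 0.23, limma adjusted p = 0.000951). Gzma averaged 0.271 ± 0.228 FPKM in the tumors and 6.85 ± 0.647 FPKM in OE normal lungs, 25.3-fold lower (log2 difference -2.64 ± 0.25, limma adjusted p = 0.000795). Nkg7 averaged 1.02 ± 0.421 FPKM in the tumors and 23.0 ± 14.6 FPKM in OE normal lungs, 22.6-fold lower, and had the largest log2 difference, -3.45 ± 0.48 (limma adjusted p = 0.00282). Prf1, which was tested because both OE normal lungs were over 1 FPKM, averaged 0.0667 ± 0.0513 FPKM in the tumors and 2.18 ± 0.110 FPKM in OE normal lungs, a 32.7-fold lower mean. Without a filter its log2 difference was -1.58 ± 0.08 (limma adjusted p = 0.00065). Gzmb, the other granzyme, was 8.39-fold lower (log2 difference -1.46 ± 0.15, limma adjusted p = 0.000960).

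The CD3 chains had smaller folds than Cd8a, Gzma, Nkg7 and Prf1. Cd3d was 8.27-fold lower in the tumors than in the OE normal lungs (log2 difference -2.14 ± 0.29, limma adjusted p = 0.00242), Cd3e 7.47-fold lower (-2.12 ± 0.27, adjusted p = 0.00194) and Cd3g 5.14-fold lower (-2.01 ± 0.39, adjusted p = 0.00964). Cd4 was 9.49-fold lower (-2.16 ± 0.51, adjusted p = 0.0195) and Cd2 5.91-fold lower (-2.66 ± 0.80, adjusted p = 0.0430). The call for Cd2 was the least secure and was lost in 9 of 16 other settings. Without OE normal lung 2, the highest library for 7 of the 10 genes, the calls of Cd2, Cd4 and Cd3g were lost. That fit keeps 1 OE normal lung, and the share of all genes tested that were called lower fell in it as well. The log2 differences of all 10 genes stayed negative. Without tumor 1, all 10 were called lower, as were 41.7% of all genes tested. The log2 difference of Cd2 was then -3.44 (limma adjusted p = 0.00130).

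Set against the WT lungs, which lack the overexpression, the tumors were lower for 7 of the 10 genes, 3 of 6 receptor genes and 4 of 4 cytotoxic genes, and 23.2% of all genes tested were called lower. This comparison shares the 3 tumors with the one before. The differences were smaller: the median was -1.11 over the receptor genes and -1.26 over the cytotoxic genes, against -0.06 over all genes tested. Every tumor lay below both WT lungs for 9 of the 10 genes, all but Cd2, against 35% of all genes tested.

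Gzma had the largest fold, 16.5-fold lower in the tumors than in the WT lungs, which averaged 4.47 ± 1.79 FPKM (SD, n = 2), with a log2 difference of -2.08 ± 0.25 and a limma adjusted p of 0.00176. Prf1 was 11.1-fold lower than the WT mean of 0.741 ± 0.179 FPKM (log2 difference -0.70 ± 0.13, limma adjusted p = 0.00843). Cd8a was 6.88-fold lower (-0.80 ± 0.23, adjusted p = 0.0355), Nkg7 6.32-fold lower (-1.81 ± 0.48, adjusted p = 0.0290) and Gzmb 3.09-fold lower (-0.58 ± 0.15, adjusted p = 0.0253). Of the CD3 chains, Cd3e was 3.62-fold lower (-1.23 ± 0.27, limma adjusted p = 0.0141) and Cd3d 3.06-fold lower (-0.96 ± 0.29, adjusted p = 0.0410). Cd3g had a log2 difference of -1.17 ± 0.39 (adjusted p = 0.0595), Cd4 one of -1.06 ± 0.51 (adjusted p = 0.153) and Cd2 one of -1.16 ± 0.80 (adjusted p = 0.292), and none of these 3 passed.

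Most of these calls against the WT lungs were fragile. Gzma alone was called in every one of the 16 other settings. Without WT lung 1, the WT lung with the higher CD3 levels, 1 of the 10 genes was called lower, against 13.8% of all genes tested. Without tumor 2, 3 were, against 17.1%. Without tumor 1, 8 were, Cd2 being the one added, against 38.7%. Prf1 lost its call without WT lung 1, and Cd3e without WT lung 1 and under quantile normalization. Calls of the 10 genes were also lost without WT lung 2 and without either OE normal lung. The sign of every gene's difference stayed the same in all settings.

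The OE normal lungs were then set against the WT lungs, normal tissue of both genotypes with 2 libraries each. All 10 genes were higher on average in the OE normal lungs, yet limma called 0 of the 10, and 0% of the 14057 genes tested. At an unadjusted p under 0.05, 5 of the 9 genes other than Prf1 were higher, Cd3d, Cd3e, Cd8a, Nkg7 and Gzmb, against 6.13% of all genes tested. Prf1 entered the test through the OE normal lungs alone, and without a filter its unadjusted p was 0.000126 and its limma adjusted p 0.0739. Among the 9 genes other than Prf1, the OE normal lungs lay above both WT lungs for all but Cd4, against 29.6% of all genes tested. For Prf1 this order followed from the filter and is not counted. The median log2 difference was 1.14 over the receptor genes and 0.88 over the cytotoxic genes, Prf1 among them, against 0.02 over all genes tested.

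Cd8a had the largest fold between the normal lungs: 4.49 ± 0.197 FPKM in OE normal lungs and 1.09 ± 0.746 FPKM in the WT lungs (SD, n = 2 each), 4.13-fold higher, with a log2 difference of 1.44 ± 0.25 and a limma adjusted p of 0.183. Prf1 had a 2.94-fold higher mean, given with no test beyond the one above. Gzmb was 2.72-fold higher (0.88 ± 0.16, limma adjusted p = 0.209) and Nkg7 3.58-fold higher (1.64 ± 0.53, adjusted p = 0.429). Gzma was the closest, 6.85 ± 0.647 FPKM in OE normal lungs and 4.47 ± 1.79 FPKM in the WT lungs, 1.53-fold higher (0.56 ± 0.28, limma adjusted p = 0.691). Without tumor 1, limma called 290 genes, among them Gzmb (adjusted p = 0.0499), and 1.48% of all genes were called higher. Prf1 is left out of that fit's calls, since it entered the fit through the OE normal lungs alone. Against all 4 normal lungs together, the tumors were lower for 9 of the 10 genes, all but Cd2 (limma adjusted p = 0.0724), with 28.2% of all genes tested called lower. Cd8a, Gzma, Gzmb and Prf1 reached 1 FPKM in normal lungs only, so they entered this test through the group where they were high. In the fit with no filter on low values, 8 of the 10 were called lower, as were 24% of all genes in it.

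**Figure D2:**
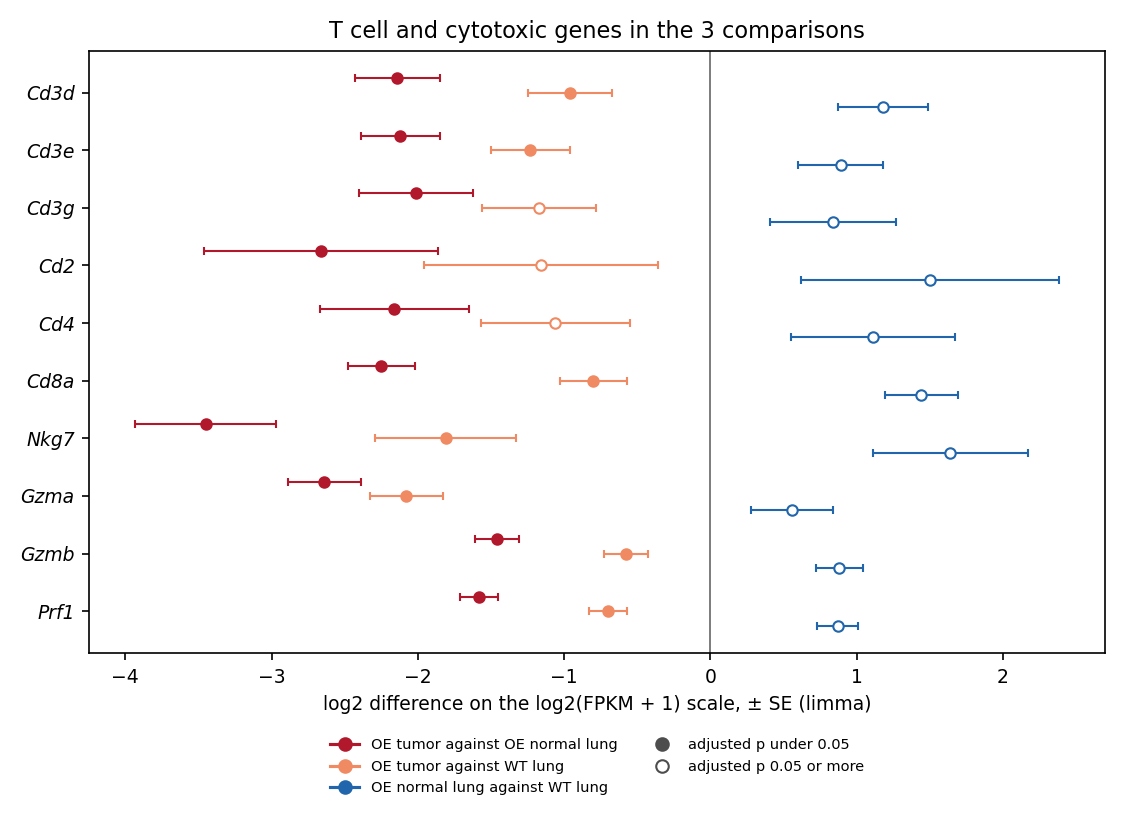
Log2 difference of each of the 10 genes on the log2(FPKM + 1) scale in the 3 comparisons, with bars of 1 SE from limma and filled points for an adjusted p under 0.05. The 2 tumor comparisons lie below 0 for all 10 genes, from -3.45 for Nkg7 to -1.46 for Gzmb against the OE normal lungs, and the comparison of the normal lungs lies above 0.

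The balance of cytotoxic and receptor genes was compared within each library, which removes differences of scale between libraries. The 4 cytotoxic genes made up 9.57%, 15% and 20.2% of the summed FPKM of the 10 genes in tumors 1, 2 and 3, 35.5% and 33.6% in OE normal lungs 1 and 2, and 30.2% and 37.9% in WT lungs 1 and 2. The share averaged 14.9 ± 5.30% in the tumors (SD, n = 3), 34.5 ± 1.3% in the OE normal lungs and 34.1 ± 5.46% in the WT lungs (SD, n = 2 each). Every tumor lay below every normal lung, and the normal lungs of both genotypes overlapped. Cd2, high in tumor 1, lowers that tumor's share: without Cd2, the shares were 29.2%, 18.2% and 22.6% in the tumors, 45.0% and 46.3% in the OE normal lungs and 38.5% and 47.1% in the WT lungs, still with no overlap.

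On the log2 scale the balance depended on the number added to FPKM. With 1 added, the mean log2 level of the cytotoxic genes minus that of the receptor genes was -0.76, -0.59 and -0.63 in tumors 1, 2 and 3, -0.38 and -0.83 in OE normal lungs 1 and 2, and -0.72 and -0.14 in WT lungs 1 and 2, and the groups overlapped. The tumor mean differed from that of the OE normal lungs by -0.06 and from that of the WT lungs by -0.23. With 0.1 added, those differences were -0.73 and -0.82. Prf1, Gzmb and Gzma, and Cd8a among the receptor genes, lay under 1 FPKM in every tumor, where adding 1 compresses differences most.

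Each gene was also set against the mean of the 3 CD3 chains in the same library. Per 100 FPKM of CD3, Cd8a was at 12.1, 11.4 and 9.13 FPKM in tumors 1, 2 and 3, at 63.7 and 36.6 FPKM in OE normal lungs 1 and 2, and at 29.7 and 16.0 FPKM in WT lungs 1 and 2. Prf1 was at 4.41, 2.57 and 5.14 in the tumors, at 28.9 and 19.0 in the OE normal lungs and at 15.9 and 17.5 in the WT lungs. For both genes each tumor lay below each normal lung, and the same held for Nkg7 and Gzma. Nkg7 was at 91.9, 56.5 and 59.7 per 100 FPKM of CD3 in the tumors, at 175 and 279 in the OE normal lungs and at 166 and 109 in the WT lungs. Gzma was at 23.8, 4.65 and 20.8 in the tumors, at 101 and 53.7 in the OE normal lungs and at 58.9 and 163 in the WT lungs.

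Gzmb and Cd4 did not follow. Per 100 FPKM of CD3, Gzmb was at 17.8, 26.1 and 18.7 in the tumors, at 38.7 and 19.9 in the OE normal lungs and at 15.7 and 30.0 in the WT lungs, so the groups overlapped. Cd4 was at 22.6, 93.0 and 49.0 in the tumors, at 54.9 and 95.8 in the OE normal lungs and at 80.4 and 42.4 in the WT lungs, again with overlap. Cd8a per 100 FPKM of Cd4 was 53.5, 12.3 and 18.6 in the tumors, 116 and 38.2 in the OE normal lungs and 37.0 and 37.7 in the WT lungs; tumors 2 and 3 lay below all normal lungs and tumor 1 did not. Cd2 ranged from 55.1 to 968 per 100 FPKM of CD3 in the tumors, against 206 to 302 in the OE normal lungs and 164 to 183 in the WT lungs.

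**Figure D3:**
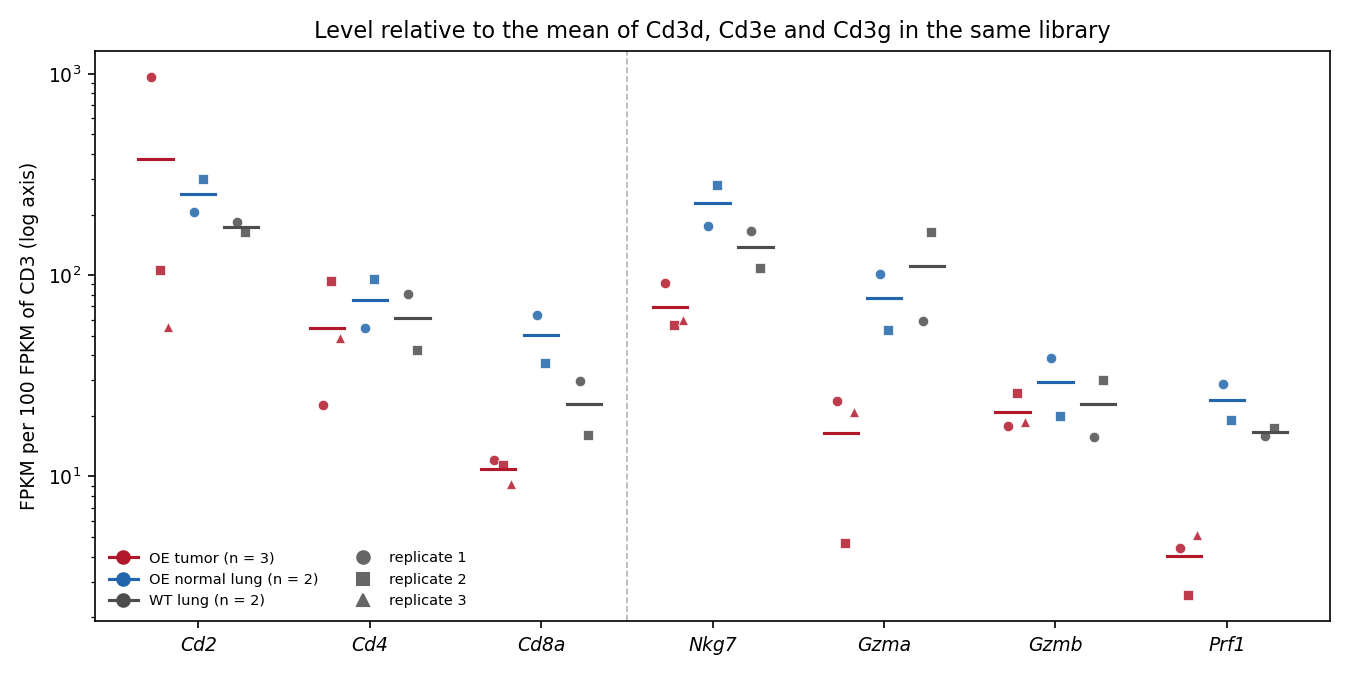
Each gene per 100 FPKM of the mean of Cd3d, Cd3e and Cd3g in the same library, on a log axis; points are libraries and bars group means, with tumors left, OE normal lungs in the middle, WT lungs right. Cd8a, Nkg7, Gzma and Prf1 were lower in all 3 tumors than in all 4 normal lungs, while Cd2, Cd4 and Gzmb overlapped.

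Ptprc, which encodes the leukocyte antigen CD45, gives the same genes relative to all leukocytes. Ptprc itself was at 19.1, 6.87 and 8.01 FPKM in tumors 1, 2 and 3, at 52.7 and 52.4 FPKM in OE normal lungs 1 and 2, and at 18.9 and 11.9 FPKM in WT lungs 1 and 2. The mean of the CD3 chains per 100 FPKM of Ptprc was 5.64, 15.7 and 30.3 in the tumors, 13.8 and 22.7 in the OE normal lungs and 28.8 and 29.4 in the WT lungs, and tumor 3 lay above all normal lungs. Relative to Ptprc, then, the tumors overlapped the normal lungs for CD3. Prf1 per 100 FPKM of Ptprc was 0.249, 0.403 and 1.56 in the tumors, 3.99 and 4.31 in the OE normal lungs and 4.59 and 5.14 in the WT lungs, with no overlap. Cd8a was at 0.684, 1.79 and 2.77 in the tumors, at 8.79 and 8.31 in the OE normal lungs and at 8.55 and 4.70 in the WT lungs, also with no overlap. Nkg7 and Gzma behaved alike, from 5.19 to 18.1 and from 0.728 to 6.30 in the tumors, each below all 4 normal lungs, while Gzmb overlapped.

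Other genes of T cell signalling were taken from lists chosen with earlier results of these data known. Their counts of lower genes stand beside the 24.9% of all genes tested that were called lower against the OE normal lungs and the 23.2% against the WT lungs. Leaving out 1 library moved these shares too, to 41.7% and 38.7% without tumor 1, and to 16.1% to 21.0% and 13.1% to 20.3% without any 1 of the other libraries. Of 12 genes that carry the receptor's signal, 9 were tested and 8 fell in the tumors against the OE normal lungs, with a median log2 difference of -1.59 over those tested, and 5 fell against the WT lungs, with a median of -0.74. Lck, the kinase that starts the signal, was at 1.04, 1.31 and 2.14 FPKM in the tumors, at 8.11 and 17.4 FPKM in OE normal lungs and at 6.71 and 2.81 FPKM in the WT lungs (limma adjusted p = 0.00666 against the OE normal lungs and 0.0791 against the WT lungs). Lat, the adaptor that gathers the signalling complex, was at 1.53, 2.34 and 4.18 FPKM in the tumors, at 10.7 and 17.8 FPKM in OE normal lungs and at 7.80 and 6.19 FPKM in the WT lungs (limma adjusted p = 0.00565 and 0.0417). No tumor overlapped a normal lung for Lck or Lat, though the call of Lat against the WT lungs was lost in 9 of 16 other settings. Cd247, the zeta chain of the receptor complex, fell by 1.51 on the log2 scale against the OE normal lungs (limma adjusted p = 0.00220). Lcp2, an adaptor that myeloid cells also use, did not pass (8.07, 2.87 and 3.73 FPKM in the tumors, 11.7 and 8.87 FPKM in OE normal lungs, limma adjusted p = 0.0772), except without tumor 1 and when rescaled to TPM. The 3 genes not tested, Ubash3a, Trat1 and Themis, were at 0 to 0.312 FPKM in the tumors and at 0.0863 to 1.67 FPKM in the normal lungs. Trat1 was listed at 0 in tumor 1, but tumors 2 and 3 lay above OE normal lung 1 and WT lung 2. Ubash3a in tumors 2 and 3 lay above WT lung 2, while Themis did not overlap. Against the WT lungs, 1 gene of the list was called without tumor 2, without WT lung 1 or without WT lung 2.

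Of 12 further T cell surface molecules and factors, all tested, 10 fell against the OE normal lungs and 6 against the WT lungs, with medians of -1.55 and -0.75. Tcf7, a transcription factor of naive and memory T cells, was at 2.22, 0.811 and 0.846 FPKM in the tumors, at 12.7 and 15 FPKM in OE normal lungs and at 13.6 and 9.97 FPKM in the WT lungs. It fell by 2.75 on the log2 scale against the OE normal lungs and by 2.52 against the WT lungs (limma adjusted p = 0.00117 and 0.00157), and was called in all other settings. Il7r, the receptor for a T cell survival cytokine, fell by 2.22 and 1.45 (limma adjusted p = 0.000823 and 0.00357). Cd8b1, the partner chain of Cd8a, was at 0.294, 0.275 and 0.428 FPKM in the tumors, at 7.40 and 5.87 FPKM in OE normal lungs and at 2.05 and 0.943 FPKM in the WT lungs (limma adjusted p = 0.000622 and 0.0252). Both chains of the CD8 coreceptor were thus lower in each tumor than in each normal lung. Thy1, which fibroblasts also make, did not pass, with 20.7, 7.42 and 7.09 FPKM in the tumors and 16.7 and 22.4 FPKM in OE normal lungs (limma adjusted p = 0.185), but passed without tumor 1 (adjusted p = 0.00105). Against the OE normal lungs, 6 of the 12 were called without tumor 2 or without OE normal lung 2, and against the WT lungs 4 without tumor 2 or without WT lung 1.

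Of 12 NK receptors and factors, 9 were tested. Tbx21, a T-box factor, was tested only because it passed 1 FPKM in both OE normal lungs. Of the other 8, 6 fell against the OE normal lungs and 4 against the WT lungs. Tbx21 was called lower in both comparisons in the fit with no filter (limma adjusted p = 0.00253 and 0.0307). Il2rb, a chain of the interleukin-2 and interleukin-15 receptors, was at 0.649, 0.638 and 1.27 FPKM in the tumors, at 8.81 and 9.67 FPKM in OE normal lungs and at 4.06 and 1.80 FPKM in the WT lungs (limma adjusted p = 0.00150 and 0.0332). Klrd1, which encodes CD94, fell against the OE normal lungs (limma adjusted p = 0.0137), a call lost without OE normal lung 1 (adjusted p = 0.0941). Eomes, another T-box factor, of NK and memory CD8 cells, went the other way in part: it was at 0.0684, 6.54 and 7.33 FPKM in the tumors, at 1.09 and 3.29 FPKM in OE normal lungs and at 0.796 and 0.298 FPKM in the WT lungs. Tumors 2 and 3 lay above all normal lungs for Eomes and tumor 1 below them, and the difference did not pass (limma adjusted p = 0.730). Without tumor 1, Eomes rose against the OE normal lungs (adjusted p = 0.0177) and the WT lungs (adjusted p = 0.00269), the one gene of the list to do so. Klrb1b, an inhibitory NK receptor, did not pass either (2.81, 2.18 and 2.88 FPKM in the tumors, 2.99 and 2.03 FPKM in OE normal lungs, limma adjusted p = 0.913). The 3 untested receptors, Klrb1c, Klre1 and Klrg1, were each at most 0.265 FPKM in the tumors. Against the WT lungs, 1 gene of this list was called without tumor 2, without WT lung 1 or without WT lung 2, and 3 without tumor 3.

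Of 9 other effector molecules, 6 were tested. Xcl1, a chemokine, was tested only through its level in both OE normal lungs. Of the other 5, 4 fell against the OE normal lungs and 2 against the WT lungs. With no filter, Xcl1 was called lower against the OE normal lungs (limma adjusted p = 0.0308). Ccl5, a chemokine of activated T and NK cells, was at 2.66, 16.6 and 18.0 FPKM in the tumors, at 81.9 and 162 FPKM in OE normal lungs and at 39.1 and 18.1 FPKM in the WT lungs. Its call against the OE normal lungs (limma adjusted p = 0.0178) was lost without OE normal lung 1 and without OE normal lung 2, the higher of the 2 adjusted p being 0.118. Cst7, a protease inhibitor of cytotoxic cells, was at 0.222, 0.108 and 0.437 FPKM in the tumors, at 3.65 and 5.05 FPKM in OE normal lungs and at 2.66 and 0.890 FPKM in the WT lungs (limma adjusted p = 0.00339 and 0.0359). Gzmk, another granzyme, was listed at 0 in tumor 1, stood at 0.942 and 16.4 FPKM in OE normal lungs 1 and 2, and did not pass (limma adjusted p = 0.0949). Gzmc was too low to be tested, with 0.145, 0.168 and 1.51 FPKM in tumors 1, 2 and 3, 0.0331 and 0.0638 FPKM in OE normal lungs and 0 listed in both WT lungs. Of these effector genes, 3 were called against the OE normal lungs without OE normal lung 2, and 1 against the WT lungs without tumor 2, tumor 3, WT lung 1 or either OE normal lung.

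The genes that load and release granules did not move together. Of 8 tested, 3 fell and 4 rose in the tumors against the OE normal lungs, with a median log2 difference of 0.11, and 3 fell and 4 rose against the WT lungs, with a median of 0.23. Of all genes tested, 13.1% rose against the OE normal lungs and 15% against the WT lungs. Srgn, the proteoglycan that holds granzymes in the granule, was at 31.3, 22.7 and 35.9 FPKM in the tumors, at 157 and 171 FPKM in OE normal lungs and at 120 and 102 FPKM in the WT lungs (limma adjusted p = 0.000546 and 0.00128). Rab27a, a GTPase that docks granules, was at 85.2, 87.6 and 83.7 FPKM in the tumors, at 17.2 and 14.5 FPKM in OE normal lungs and at 15.3 and 18.8 FPKM in the WT lungs (limma adjusted p = 0.000289 and 0.000232). Rab27a rose by 2.36 and 2.27 on the log2 scale in the same libraries in which Prf1 and the granzymes fell. Stxbp2, a partner of the release machinery, was at 59.0, 107 and 106 FPKM in the tumors, at 27.3 and 21.9 FPKM in OE normal lungs and at 22.6 and 18.8 FPKM in the WT lungs (limma adjusted p = 0.00460 and 0.00302). Ctsc, the protease that activates granzymes, rose by 1.42 and 1.94 (limma adjusted p = 0.00875 and 0.00293), the first of these lost without OE normal lung 1 (adjusted p = 0.0650). Of the 4 that rose against the OE normal lungs, 2 were called without OE normal lung 1. Rab27a, Stxbp2 and Ctsc are also made by cells that are not lymphocytes.

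Of 12 checkpoint and regulatory T cell genes, all were tested, but Il2ra and Cd96 only through the OE normal lungs. Of the other 10, 5 fell against the OE normal lungs and 1 against the WT lungs; that 1 in 10 is below the 23.2% of all genes tested. With no filter, Il2ra and Cd96 were called lower against the OE normal lungs (limma adjusted p = 0.0149 and 0.00601). Over all 12, the median log2 difference was -0.91 against the OE normal lungs and -0.29 against the WT lungs. Btla, an inhibitory receptor of B and T cells, was the one called in both, at 0.846, 0.559 and 0.849 FPKM in the tumors, at 9.48 and 23.9 FPKM in OE normal lungs and at 8.73 and 4.33 FPKM in the WT lungs (limma adjusted p = 0.00221 and 0.0116). Lag3, an inhibitory receptor, fell against the OE normal lungs (0.910, 0.727 and 1.08 FPKM in the tumors, 3.66 and 7.34 FPKM in OE normal lungs, limma adjusted p = 0.0109), a call lost without OE normal lung 2 (adjusted p = 0.0703). Havcr2, which encodes TIM-3 and is made by myeloid cells too, overlapped, with 6.27, 2.78 and 3.79 FPKM in the tumors and 5 and 4.19 FPKM in OE normal lungs (limma adjusted p = 0.761). Tnfrsf18, a costimulatory receptor of regulatory T cells, did as well (3.79, 3.90 and 4.37 FPKM in the tumors, 3.77 and 6.17 FPKM in OE normal lungs, limma adjusted p = 0.551). Every tumor lay above both WT lungs for Tnfrsf18, at 3.14 and 1.47 FPKM, the one gene of the list in that direction, with a log2 difference of 0.65 ± 0.28 (limma adjusted p = 0.111). Against the OE normal lungs, 3 of the 12 were called without tumor 2 or without tumor 3, and 2 without OE normal lung 2. Against the WT lungs, the calls of Btla, Cd8b1, Il2rb and Cst7 were all lost without WT lung 1.

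Markers of other cell types moved in the same libraries, and their part in the results above was not tested. The summed level of 6 B cell genes ranged from 8.33 to 19.1 FPKM in the tumors, from 139 to 515 FPKM in OE normal lungs and from 38.7 to 77.0 FPKM in the WT lungs, and 6 of 6 fell against the OE normal lungs. The sum of 6 pan-leukocyte genes, Ptprc among them, ranged from 141 to 357 FPKM in the tumors, from 615 to 698 FPKM in OE normal lungs and from 143 to 250 FPKM in the WT lungs, and 3 of 6 fell against the OE normal lungs and 0 of 6 against the WT lungs by limma, also 0 at an unadjusted p under 0.05. Without OE normal lung 2, 0 of those 6 were called against the OE normal lungs and without OE normal lung 1, 1 was, whereas without tumor 1, 6 were called against the OE normal lungs and 3 against the WT lungs, where 41.7% and 38.7% of all genes were called lower. The sum of 6 macrophage genes overlapped, with 57.0 to 146 FPKM in the tumors and 104 to 145 FPKM in OE normal lungs, and 1 of 6 fell (3 of 6 without tumor 1). Against the WT lungs, with 67.3 to 70.5 FPKM, 1 fell, Mertk, and 1 rose, Cd68, at 58.5, 20.2 and 26.9 FPKM in the tumors and 12.2 and 8.19 FPKM in the WT lungs (log2 difference 1.57 ± 0.43, limma adjusted p = 0.0324), a call lost in 7 of 16 other settings. Emr1, which encodes the macrophage antigen F4/80, also lay above both WT lungs in every tumor (log2 difference 0.83 ± 0.42, limma adjusted p = 0.166). The pan-leukocyte and macrophage sums of the tumors thus overlapped those of the WT lungs. The B cell sums did not, nor did the sums of the dendritic cell genes, the 6 receptor genes or the 4 cytotoxic genes. Blood and vessel markers were also lower: 4 erythroid genes summed to 47.4 to 138 FPKM in the tumors, 3260 to 4490 FPKM in OE normal lungs and 2110 to 2380 FPKM in the WT lungs. The sum of 4 endothelial genes was 55.0 to 69.7 FPKM in the tumors, 715 to 719 FPKM in OE normal lungs and 775 to 805 FPKM in the WT lungs. That of 5 epithelial genes was 655 to 926 FPKM in the tumors, 248 to 284 FPKM in OE normal lungs and 364 to 371 FPKM in the WT lungs, so the tumor libraries held relatively more epithelial and less blood and vessel RNA. Dendritic cell genes summed to 4.43 to 8.10 FPKM in the tumors, 26.5 to 31.7 FPKM in OE normal lungs and 22.7 to 25.6 FPKM in the WT lungs. For mast cells, 1 of 5 tested genes fell, Kit, which other cells also make, and the other 4 were not called in either comparison. Of the 5, 1 had a log2 difference above 0 against the OE normal lungs and 3 against the WT lungs. Tpsb2, a mast cell tryptase, was listed at 0 in tumor 1 but stood at 3.58 and 2.40 FPKM in tumors 2 and 3. It was at 1.26 and 0.388 FPKM in OE normal lungs and at 0.315 and 0.694 FPKM in the WT lungs.

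Between the normal lungs, limma called 0 genes of any list. The OE normal lungs lay above both WT lungs for 6 of 6 pan-leukocyte genes and for 6 of 6 B cell genes. Of all genes tested, 29.6% did so. The median log2 differences of the 2 lists were 1.70 and 2.16, beside 1.00 for the 10 T cell and cytotoxic genes, Prf1 among them. At an unadjusted limma p under 0.05, 6 of 6 pan-leukocyte genes, 5 of 6 B cell genes and 0 of 4 erythroid genes were higher. Of all genes tested, 6.13% were. Ptprc was higher by 1.74 ± 0.46 in the OE normal lungs on the log2 scale (limma adjusted p = 0.318).

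**Figure D4:**
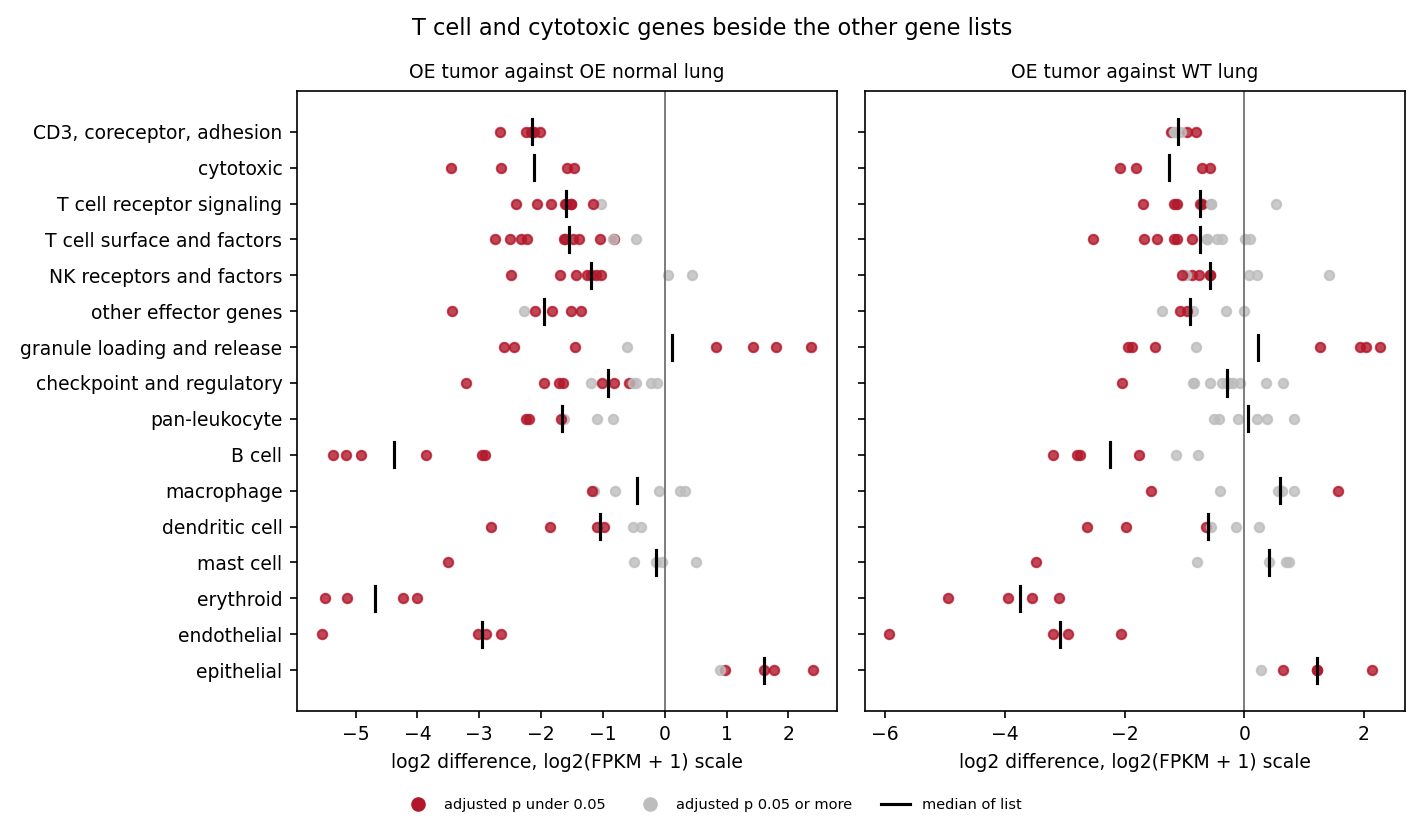
Log2 difference of each tested gene, on the log2(FPKM + 1) scale, by list of genes, for the tumors against the OE normal lungs (left) and the WT lungs (right), with black bars for list medians and red points for an adjusted p under 0.05. Against the OE normal lungs the receptor genes have a median of -2.15 and the cytotoxic genes one of -2.11, whereas the granule release genes lie on both sides of 0 and the epithelial genes above it.

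The genes outside the 10 whose levels followed them most closely over the 7 libraries were found by Pearson's r on the log2(FPKM + 1) scale, a description over libraries that share their groups. With the mean of the 6 receptor genes, they included Nlrp1a (r = 0.9981), Blnk (0.9968), Zcchc18 (0.9960) and Tgtp1 (0.9955). With the mean of the 4 cytotoxic genes, they were Il12rb1 (0.9967), Gbp2 (0.9961), Cyfip2 (0.9952), Lrriq1 (0.9946) and Muc5b (0.9934). Il12rb1 and Lrriq1 reached 1 FPKM only in the OE normal lungs, where the cytotoxic genes were highest, so the filter itself favored them. Gbp2 was at 3.97, 2.55 and 4.33 FPKM in the tumors, at 41.1 and 64.6 FPKM in OE normal lungs and at 21.1 and 15.1 FPKM in the WT lungs. Gbp2 and Tgtp1 are interferon-induced GTPases. Muc5b, an airway mucin, was at 0.615, 0.788 and 1.12 FPKM in the tumors, at 7.17 and 8.94 FPKM in OE normal lungs and at 4.24 and 4.10 FPKM in the WT lungs, so a gene of airway epithelium was also lower in each tumor than in each normal lung.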

How the data were processed

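Values were FPKM as deposited, 1 table per library. Reads were processed by the authors with TopHat or TopHat2 and Cufflinks 2.0.0 on build mm9 of the mouse genome, per the submitters' processing notes; none of the sources used here gives the annotation, strand setting or library normalization option, so reads shared with overlapping or antisense genes could not be set apart, and FPKM of a rare gene depends on the highly expressed genes of its library. From the tables, 27 rows whose symbols had turned into dates were left out, leaving 22447 genes. Depth was inferred from the steps between low values, with no intervals. The 14057 genes that reached 1 FPKM in 2 or more libraries were tested with limma 3.58.1 (R 4.3.3; Python 3.11.15 elsewhere) on log2(FPKM + 1), all 3 groups in 1 fit with a mean-variance trend, without a replicate block, and p-values adjusted by Benjamini-Hochberg over all genes. The fit was tested on simulated data. The tumors were also set against all 4 normal lungs in a 2-group fit. No two-sided exact rank-sum test over libraries can pass 0.05 here (smallest p 0.2 for 3 against 2, 0.333 for 2 against 2 and 0.0571 for 3 against 4).

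The 10 members and all lists were chosen with earlier results of these data known. Named genes were all 10 members, up to 4 genes of a list with the highest mean FPKM, and the 5 genes most like each pattern, of which 1 is not reported here; genes named as not called or not tested, and Gzmc, Tpsb2, Kit, Tbx21, Xcl1, Il2ra, Cd96, Cd68, Emr1 and Mertk, were added after their values were seen. Alternatives changed the pseudocount, the filter, the scaling (median of ratios, rescaling to TPM, quantile normalization), the trend, the libraries in the fit, the replicate block and each library in turn; leaving out Cd2 was chosen after seeing the data. No batch is labelled.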

Additional observations from a re-analysis of the deposited data

How the results depend on the processing

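No difference of the 10 genes changed sign in any setting, and 7 of the 10 calls against the OE normal lungs held in every setting that tested the gene. Counts of the 10 called lower were 10 against the OE normal lungs, 7 against the WT lungs and 9 against all normal lungs. Prf1 entered the first of these through the OE normal lungs alone. Cd8a, Gzma, Gzmb and Prf1 entered the last through normal lungs alone. The shares of all genes tested called lower were 24.9%, 23.2% and 28.2%. A filter at 5 FPKM, which leaves 6 of the genes to test, gave 6, 3 and 5, beside 22.6%, 21.8% and 26.7% of all genes. Quantile normalization gave 2 of 10 against the WT lungs, close to the 19.8% of all genes called lower there. The cause of that was not tested. Without tumor 1 the counts were 10, 8 and 9, beside 41.7%, 38.7% and 39.0% of all genes. Without tumor 2 they were 9, 3 and 4, beside 18.9%, 17.1% and 20.9%. Without tumor 3 they were 9, 6 and 7, beside 18.8%, 17.4% and 21.2%. Leaving out any 1 of the normal lungs also lost calls against the OE normal lungs and against the WT lungs, and only part of these losses is given above. Between the normal lungs, Gzmb was called higher without tumor 1, beside 1.48% of all genes. Prf1 is not counted there, as it entered that fit through the OE normal lungs alone. Without tumor 2 or tumor 3, 0 of the 10 were called. Over all genes, the calls numbered 5350 against the OE normal lungs (2996 to 9620 without 1 library), 5371 against the WT lungs (2445 to 9438), 6645 against all normal lungs (4663 to 9310) and 0 between the normal lungs (0 to 290; 1 with a pseudocount of 0.1, 2 with no filter and 3 in a fit of those groups alone). The labels did not say whether same-numbered libraries were paired. Their deviations from the group means had r from -0.0292 to 0.0341, which cannot decide it with 2 or 3 libraries per group. A replicate block gave 8, 3 and 4 of the 10 genes against OE normal, WT and all normal lungs. The shares of all genes called lower were 16.5%, 14.9% and 19.5%. In all, the fit with the block called 3130, 2999 and 4278 genes, and 1 gene between the normal lungs. Higher genes made up 34.5% of the calls against the OE normal lungs (44.6% with median-of-ratios scaling, 18.2% rescaled to TPM, 53.7% with quantile normalization) and 39.4% against the WT lungs (52.8% with quantile normalization). The median of all genes against the OE normal lungs moved with it, -0.11 on the log2 scale, -0.33 rescaled to TPM and 0.11 with quantile normalization. With a pseudocount of 0.1, the cytotoxic minus receptor log2 balance of the tumors was -0.73, -0.82 and -0.77 relative to OE normal, WT and all normal lungs, against -0.06, -0.23 and -0.14; without 1 library it ranged from -0.28 to 0.16, from -0.52 to 0.06 and from -0.25 to -0.02, and between the normal lungs from -0.46 to 0.12. The tumor minus normal difference in cytotoxic share ranged from -22.3 to -17.0, from -23.0 to -15.3 and from -22.0 to -16.7 percentage points, and that between the normal lungs from -3.38 to 4.35. Few reads for the cytotoxic genes and for Cd8a in the tumors limit how well their levels are known.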
